A study of Mus musculus with 8 samples.

Results

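The genes described here encode the protein coat of lipid droplets and the structural proteins of caveolae. Both structures are abundant in fat cells. The members were chosen by gene symbol as 5 droplet genes (Plin1, Plin2, Plin4, Cidec and Bscl2) and 5 caveola genes (Cav1, Cav2, Cavin1, Cavin2 and Ehd2). Probe sets whose only annotated symbol was a member were taken, which gave 16 of the 22626 probe sets tested and 9 of the 12393 genes; Plin1 was not analysed here. Expression was measured on 8 arrays of RNA from cultured mouse adipocytes, 4 from cells infected with adenovirus carrying spliced Xbp1 (sXBP1) and 4 from cells infected with adenovirus carrying green fluorescent protein (GFP). The labels describe the cells as F442A, a mouse preadipocyte line that stores fat when differentiated, but name the line in another field as 3T3L1, of Swiss background. All cells were infected at day 6 to 8 of differentiation and harvested 4 to 6 days later, and these ranges are the same for both groups. Whether the 4 arrays of a group stem from separate cultures is not in the labels, and the p-values below therefore cover only the array-to-array spread, which could be technical. Neither the promoter of the virus nor its dose is given there.

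A lipid droplet is a store of triglyceride within a phospholipid monolayer. Perilipins cover that surface and control the access of lipases, Cidec (also called FSP27) sits where droplets touch and lets lipid pass so that large droplets form, and seipin, the product of Bscl2, acts in the endoplasmic reticulum (ER) membrane where droplets are assembled. Caveolae are small pits of the plasma membrane. Caveolins form their core, cavins assemble around them on the cytoplasmic side, and the ATPase EHD2 sits at the neck of the pit. Spliced XBP1 is a transcription factor of the ER stress response, and the study compared adipocytes that overexpress it with GFP controls.

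Arrays of 1 group were alike, with correlations of 0.986 to 0.994 within sXBP1 and 0.991 to 0.995 within GFP, against 0.949 to 0.971 between the groups (across 11333 probe sets, which are not independent replicates). The median signal ran from 117.3 to 139.65 on sXBP1 arrays and from 135 to 153.9 on GFP arrays, so signals were quantile normalized before testing. The 3' to 5' signal ratio of Gapdh, a measure of RNA integrity, was 0.775 to 0.802 on sXBP1 arrays and 0.810 to 0.820 on GFP arrays, and its part in the results was not tested. Xbp1 itself, on its brightest probe set, changed by 0.07 ± 0.04 on the log2 scale (limma adjusted p = 0.271) and by 0.21 (adjusted p = 0.0307) after median centring. Whether these probes detect the viral transcript was not analysed, and they give no check of the labels.

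In sXBP1 adipocytes, 6 of the 9 measured genes fell and 0 rose, among them 2 of 4 droplet genes and 4 of 5 caveola genes. The size of the change differed widely inside each structure. Cavin2 fell to 0.321 of its GFP signal and Cidec to 0.511, whereas the core caveolins Cav1 and Cav2 kept 0.907 and 0.876. Only 0.25% and 0.66% of probe sets were brighter than those of Cav1 and Cav2, against 12.1% for Cavin2 and 8.0% for Cidec. Whether brightness limits the measured change was not tested. Of all genes tested, 27.3% were called in either direction and 14.4% lower at the same threshold (limma, adjusted p under 0.05). Among the 1703 genes at least as bright as the dimmest member, 28.7% were called lower. The calls of Cav1, Cav2 and Plin2 were lost under median centring, where Cav1 changed by 0.0017, Cav2 by -0.05 and Plin2 by -0.17, which left 1 droplet gene and 2 caveola genes. The median log2 change was -0.26 for the 4 droplet genes and -0.33 for the 5 caveola genes, against -0.015 for all genes. The 2 ranges of change overlapped, from -0.93 to -0.20 for droplet genes and from -1.58 to -0.18 for caveola genes. Since the arrays hold bulk RNA, fewer cells with these structures and less RNA per cell cannot be told apart.

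**Figure D1:**
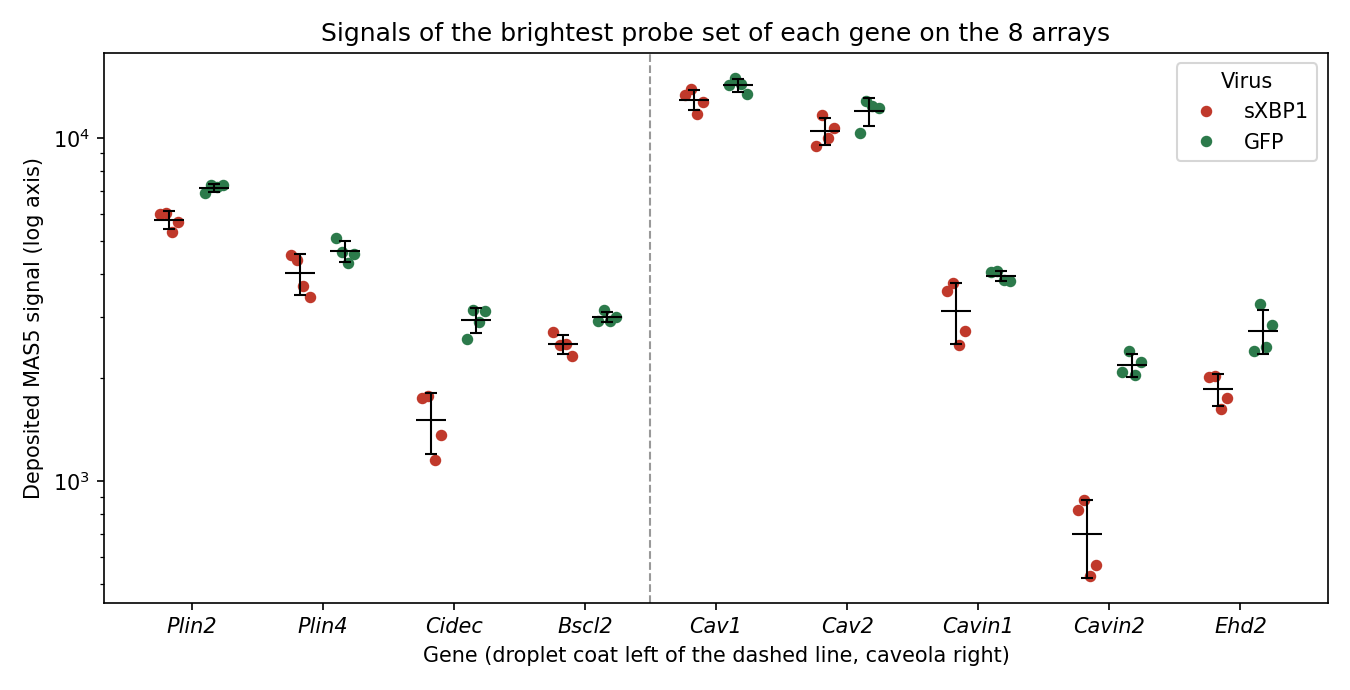
Deposited signal (log axis) of the brightest probe set of each gene on the 4 sXBP1 arrays (red, left of each pair) and the 4 GFP arrays (green); bars are the mean and SD of 4 arrays. Signals of Cavin2 lie between 530.4 and 882.8 on sXBP1 arrays and between 2030.9 and 2396 on GFP arrays, while those of Cav1 and Cav2 overlap between the groups.

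The droplet coat was led by Cidec. Its signals were 1746.7, 1768.1, 1148.3 and 1357.8 on the sXBP1 arrays, against 2597.1, 3144.1, 2913.2 and 3118.4 on the GFP arrays. All sXBP1 signals lay below all GFP signals, and arrays 3 and 4 were the lowest. Cidec changed by -0.93 ± 0.13 on the log2 scale (SE, n = 4 per group; limma adjusted p = 5.22e-04, 95% confidence interval -1.22 to -0.64). Without sXBP1 arrays 3 and 4 it changed by -0.65.

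Plin2, the perilipin found on droplets of most cell types, fell less. Its signals were 6012.4, 6048.7, 5315.4 and 5679.5 on the sXBP1 arrays, against 6884.8, 7286.8, 7203.8 and 7275.7 on the GFP arrays. The groups did not overlap, and the 4 GFP signals lay close together. The log2 change was -0.29 ± 0.06 (SE, n = 4 per group; limma adjusted p = 0.00384).

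Plin4, a perilipin of adipocytes that coats small and growing droplets, did not pass the test. Its signals were 4568.6, 4403.4, 3694.9 and 3436.2 on the sXBP1 arrays, against 5106.4, 4638.8, 4321.8 and 4589.5 on the GFP arrays. sXBP1 arrays 1 and 2 lay within the GFP range and arrays 3 and 4 below it. The change was -0.20 ± 0.12 (SE, n = 4 per group; limma adjusted p = 0.274).

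Bscl2, whose loss in people causes generalised lipodystrophy, was measured by 2 probe sets with like changes of -0.22 and -0.21. On the brighter the signals were 2714.2, 2494.2, 2504.1 and 2317.3 on sXBP1 arrays, against 2934.3, 3154.8, 2922.2 and 3002.4 on GFP arrays. These signals did not overlap, yet the normalized values did not pass (limma adjusted p = 0.0682). With the values as deposited Bscl2 passed (-0.26, adjusted p = 0.0132), so its call depends on the scaling. On the dimmer probe set the groups overlapped (adjusted p = 0.266).

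Among caveola genes the cavins were the most uneven. Cavin2, a cavin that helps bend the caveolar membrane, had signals of 822.3, 882.8, 530.4 and 567.7 on the sXBP1 arrays, against 2072.4, 2396, 2030.9 and 2222.8 on the GFP arrays. The highest sXBP1 signal was below the lowest GFP signal by a wide margin. The log2 change was -1.58 ± 0.15 (SE, n = 4 per group; limma adjusted p = 5.17e-05, 95% confidence interval -1.93 to -1.24). The other Cavin2 probe set gave -1.68 ± 0.09 (limma adjusted p = 1.9e-06), with signals of 366.2 to 521.6 on sXBP1 arrays and 1262.2 to 1686.8 on GFP arrays. Without sXBP1 arrays 3 and 4 the brighter probe set changed by -1.25.

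Cavin1, the cavin without which caveolae do not form, did not pass on its brightest probe set. Its signals were 3568.9, 3769, 2488 and 2727.4 on the sXBP1 arrays, against 4061.9, 4080.6, 3862.1 and 3820.4 on the GFP arrays. On these signals, sXBP1 arrays 1 and 2 lay just under the GFP range and arrays 3 and 4 well under it. The spread was 625.8 (SD) around a mean of 3138 on sXBP1 arrays, against an SD of 134.1 in GFP cells. On the normalized log2 scale sXBP1 arrays 1 and 2, at 11.87 and 11.92, lay within the GFP range of 11.86 to 12.08. The log2 change was -0.33 ± 0.13 (SE, n = 4 per group; limma adjusted p = 0.108), and -0.05 without sXBP1 arrays 3 and 4. A dimmer probe set with a GFP mean of 251.3 gave -0.24 (adjusted p = 0.161). The dimmest, called present on 1 of 4 sXBP1 arrays and 2 of 4 GFP arrays, gave -0.52 and passed (adjusted p = 0.0436), but kept that call in only 1 of 8 single leave-outs of an array (adjusted p up to 0.121) and lost it with a pseudocount of 1 (0.0598), median centring (0.0802) and the replicate block (0.0934).

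The caveolins are the integral membrane proteins of the caveolar coat. Cav1, the caveolin that builds the coat, had signals of 13363.1, 13828, 11751.6 and 12706.2 on the sXBP1 arrays, against 14246.3, 14934.2, 14362.6 and 13423.3 on the GFP arrays. sXBP1 array 2 lay above GFP array 4, so the deposited signals overlapped. The normalized log2 values did not, with a highest sXBP1 value of 13.740 and a lowest GFP value of 13.748. The change was -0.18 ± 0.05 (SE, n = 4 per group; limma adjusted p = 0.0325), and it had no direction after median centring (0.0017).

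Cav2, which joins Cav1 in mixed oligomers, had signals of 9468.4, 11670.9, 9964.4 and 10712.8 on the sXBP1 arrays, against 10291.4, 12818.5, 12379 and 12248.8 on the GFP arrays. The groups overlapped because GFP array 1 was low. The change was -0.20 ± 0.06 (SE, n = 4 per group; limma adjusted p = 0.0441). A dim Cav2 probe set was called present on 3 of 4 arrays in each group, with means of 94.8 on sXBP1 arrays and 99.2 on GFP arrays. It gave 0.08 (limma adjusted p = 0.734). In RefSeq (GRCm38.p6) the Cav1 and Cav2 genes lie side by side on chromosome 6 with 0 protein-coding genes between them. In single leave-outs of each array, the adjusted p of Cav1 ran from 0.0188 to 0.0868 and that of Cav2 from 0.0142 to 0.118. Leaving out GFP array 1, 2 or 3 or sXBP1 array 3 or 4 ended the call of Cav1 (-0.17, -0.17, -0.18, -0.14 and -0.17), and leaving out any array but GFP array 1 and sXBP1 array 2 ended that of Cav2.

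Ehd2 had signals of 2005.3, 2024.1, 1616.3 and 1749.1 on the sXBP1 arrays, against 2397.2, 3269.9, 2459.4 and 2846 on the GFP arrays. The groups did not overlap. The change was -0.53 ± 0.10 (SE, n = 4 per group; limma adjusted p = 0.00255). Its other probe sets, called present on 0 of 4 sXBP1 arrays and 1 of 4 GFP arrays each, gave -0.16 and -0.05 and did not pass (adjusted p = 0.591 and 0.924). With the mean of the 3 probe sets the change was -0.25 (adjusted p = 0.177).

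**Figure D2:**
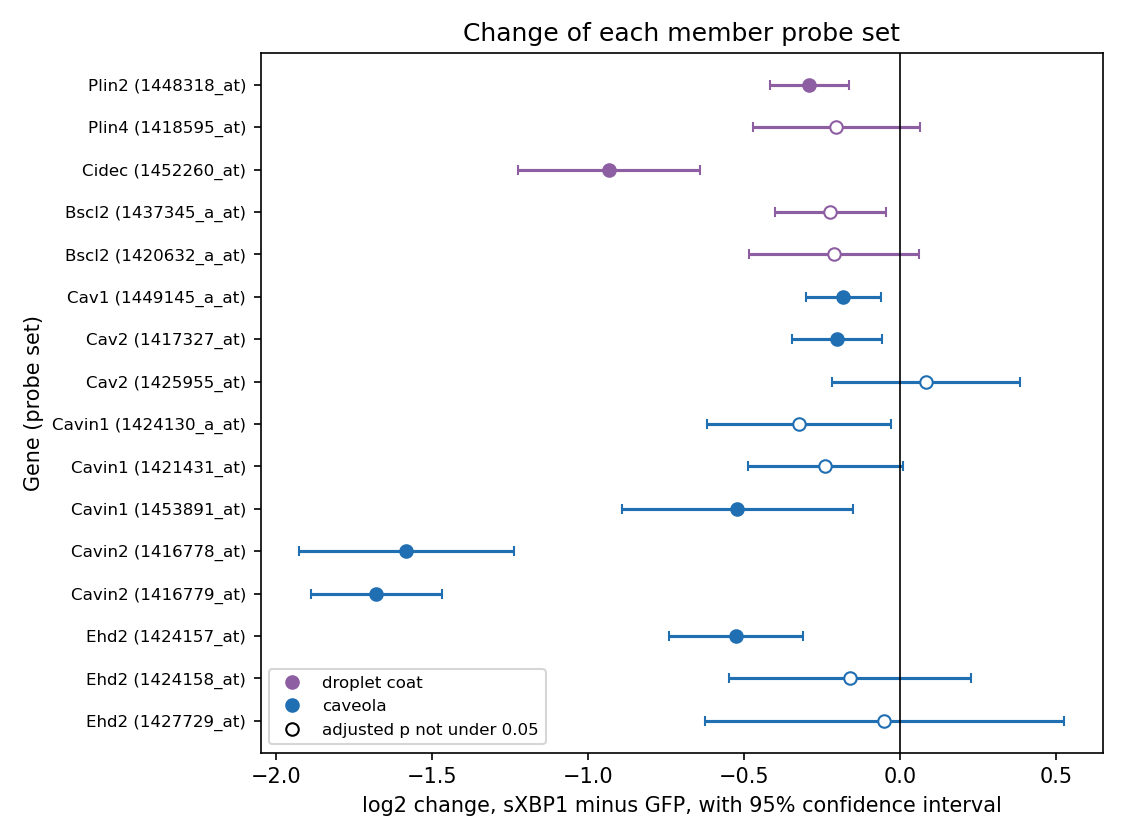
Log2 change (sXBP1 minus GFP, horizontal axis) with its 95% confidence interval for all 16 probe sets, droplet coat in purple and caveola in blue; filled points passed at an adjusted p under 0.05. The Cavin2 probe sets at -1.58 and -1.68 and Cidec at -0.93 lie apart from the rest, and the remaining probe sets run from -0.53 to 0.08.

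By probe set, 8 of 16 passed as lower and 0 as higher, against a background of 13% of all probe sets called lower and 24.5% called in either direction. The deposited signals did not overlap between the groups for 3 of 4 droplet genes (Plin2, Cidec and Bscl2) and for 3 of 5 caveola genes (Cavin1, Cavin2 and Ehd2). Over all genes, 17.8% had every sXBP1 signal below every GFP signal. This share was not counted among genes as bright as the members. On the normalized values, in contrast, Cavin1 overlapped and Cav1 did not, so this grouping depends on the scaling. In the authors' deposited table, all 16 probe sets were classed as higher in the control, as were 62.8% of all probe sets it lists; scores of some members lay near 0, such as -0.178 for an Ehd2 probe set. The signed fold there was -3.11 and -3.43 for the Cavin2 probe sets and -1.96 for Cidec.

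Differences in change between pairs of genes were then tested on the normalized values of each array. This cancels a shift shared by all genes of that array, but not scaling that depends on brightness. The change of Cavin2 minus that of Cav1 was -1.40 ± 0.15 (SE) on the log2 scale, and minus that of Cavin1 it was -1.26 ± 0.06. The difference was -0.34 ± 0.09 for Ehd2 minus Cav1 and -0.64 ± 0.11 for Cidec minus Plin2. Each of these gave p = 0.0286 (two-sided exact permutation test, n = 4 per group), the smallest that 4 against 4 arrays allows, and none of them passed after adjustment over the 9 pairs (adjusted exact p = 0.0515). Cav2 minus Cav1 was -0.02 ± 0.09 (exact permutation p = 0.8), Cavin1 minus Cav1 was -0.14 ± 0.12 (p = 0.371), Plin4 minus Plin2 was 0.09 ± 0.10 (p = 0.429), and Bscl2 minus Plin2 was 0.07 ± 0.06 (p = 0.343). The pairs against Plin2 were chosen after the values were seen, in place of planned pairs against Plin1.

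The 4 sXBP1 arrays were not alike in these genes. For 7 of the 9 genes (all but Bscl2 and Cav2), arrays 3 and 4 both lay below arrays 1 and 2. The share of all genes with this order was not counted. The median deviation from the GFP mean over the droplet genes was -0.12, -0.21, -0.30 and -0.51 on sXBP1 arrays 1 to 4. Over the caveola genes it was -0.30, -0.08, -0.56 and -0.64. Adipocyte markers moved the same way: over 8 measured markers the median deviation was -0.54 and -0.56 on arrays 1 and 2, and -0.93 and -1.23 on arrays 3 and 4. On arrays 1 to 4 it was -0.10, -0.17, -0.13 and -0.17 for fibroblast markers and -0.11, 0.11, -0.18 and -0.18 for muscle markers. For endothelial markers it was 0.20, 0.28, 0.19 and -0.01, and for macrophage markers 0.23, 0.24, 0.02 and 0.02. The Gapdh ratio was 0.775, 0.777, 0.778 and 0.802 on sXBP1 arrays 1 to 4. The labels give no batch for these arrays. Without arrays 3 and 4, Cidec, Plin2, Cavin2 and Ehd2 passed (adjusted p = 7.24e-05, 0.00693, 1.32e-05 and 0.016), and Cav1 and Cav2 did not (adjusted p = 0.157 and 0.192).

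**Figure D3:**
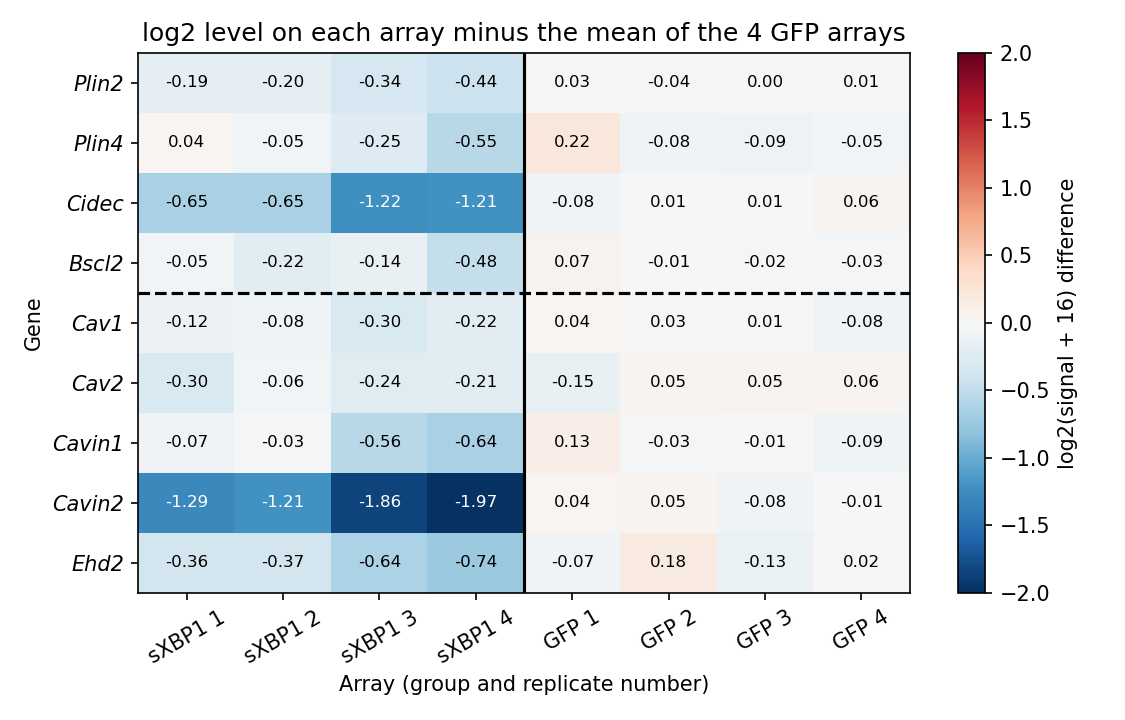
Log2 level of each gene (rows, brightest probe set) on each array (columns, sXBP1 left and GFP right of the line) minus the mean of the 4 GFP arrays. Cavin2 and Cidec are lower on every sXBP1 array and lowest on arrays 3 and 4, whereas Plin4 and Cavin1 stand near the GFP mean on arrays 1 and 2.

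The promoters of the genes that fell most, Cavin2 and Cidec, are shown with those of Plin2, whose start site lies within a match to ACGTG, and Cavin1, the cavin that did not pass; these last were picked with their matches known. The windows are from RefSeq (GRCm38.p6), 250 bases before to 50 after a start site, 5′ to 3′ on the gene's strand. Capitals mark matches on either strand to ACGTG (the core of the unfolded protein response element, which XBP1 binds), CCAAT (the NF-Y box) and AGGTCA (the site that nuclear receptors such as PPARγ bind in pairs). Cidec has 2 windows with no match. The Cavin2 window is chr1:51288876-51289175 (plus strand), the Cidec windows are chr6:113435711-113436010 and chr6:113434715-113435014 (minus strand), the Plin2 window is chr4:86670010-86670309 (minus strand) and the Cavin1 window is chr11:100970568-100970867 (minus strand).
Cavin2: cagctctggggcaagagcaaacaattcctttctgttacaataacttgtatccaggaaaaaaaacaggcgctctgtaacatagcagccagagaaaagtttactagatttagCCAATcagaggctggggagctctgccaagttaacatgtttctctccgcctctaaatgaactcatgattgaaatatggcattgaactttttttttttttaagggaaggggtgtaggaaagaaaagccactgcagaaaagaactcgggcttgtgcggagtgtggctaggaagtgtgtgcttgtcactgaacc
Cidec window 1: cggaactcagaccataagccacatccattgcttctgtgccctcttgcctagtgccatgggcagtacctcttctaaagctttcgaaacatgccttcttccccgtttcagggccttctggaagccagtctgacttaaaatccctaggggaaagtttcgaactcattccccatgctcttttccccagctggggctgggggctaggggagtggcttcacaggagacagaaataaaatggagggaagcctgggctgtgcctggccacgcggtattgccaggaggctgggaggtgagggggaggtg
Cidec window 2: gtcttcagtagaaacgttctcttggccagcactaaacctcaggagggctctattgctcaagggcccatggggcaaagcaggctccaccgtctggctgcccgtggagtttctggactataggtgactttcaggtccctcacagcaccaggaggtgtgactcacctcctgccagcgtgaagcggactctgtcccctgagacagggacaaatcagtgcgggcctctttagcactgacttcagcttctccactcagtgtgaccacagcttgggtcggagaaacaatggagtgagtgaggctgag
Plin2: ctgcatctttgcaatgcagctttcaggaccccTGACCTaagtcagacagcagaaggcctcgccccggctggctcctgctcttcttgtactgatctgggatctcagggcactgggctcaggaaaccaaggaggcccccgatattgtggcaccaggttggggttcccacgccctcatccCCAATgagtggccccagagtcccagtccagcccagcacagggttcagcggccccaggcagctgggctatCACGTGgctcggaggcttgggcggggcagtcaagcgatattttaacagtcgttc
Cavin1: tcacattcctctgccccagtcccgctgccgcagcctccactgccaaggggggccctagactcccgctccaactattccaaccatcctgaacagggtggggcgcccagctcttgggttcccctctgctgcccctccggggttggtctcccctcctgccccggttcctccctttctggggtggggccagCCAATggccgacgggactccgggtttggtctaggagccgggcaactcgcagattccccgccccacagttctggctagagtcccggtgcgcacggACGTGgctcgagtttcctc

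In the Plin2 window, ACGTG occurred on both strands in overlapping matches, from position -4 to 1 and from -3 to 2 relative to the start site (which is position 1); together they read CACGTG, which is also an E-box. It also held CCAAT from -73 and AGGTCA, on the other strand, from -218. Cavin1 held ACGTG from position 32 and CCAAT from -63, and Cavin2 held CCAAT from -140. Of the 15 windows of the 10 member genes, 4 held ACGTG (Cav1, Cavin1 and Plin2), 8 held CCAAT (Bscl2, Cav2, Cavin1, Cavin2, Ehd2, Plin2 and Plin4) and 2 held AGGTCA (Bscl2 and Plin2); the 2 Cavin1 windows overlap almost wholly. Of the 32851 windows of all genes, 19.6% held ACGTG, 37.4% CCAAT and 16.3% AGGTCA. The full ER stress element (CCAAT, then any 9 bases, then CCACG) matched 0 of the 15 member windows and 0.119% of all windows. The paired nuclear receptor site (AGGTCA, any 1 base, AGGTCA) also matched 0 of 15, and 0.04% of all windows. Cavin2 had the lowest GC content of the member windows, 43.3%, against a median of 52.7% over all windows. Which start site is used in these cells was not measured.

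Relatives of the members did not all move with them. Plin3, the perilipin of the cytosol that coats new droplets, rose, with signals of 1742, 1647.4, 2093.2 and 2130 on the sXBP1 arrays, against 1125.5, 1336.1, 1285.4 and 1293.3 on the GFP arrays. Every sXBP1 signal was above every GFP signal, and the change was 0.63 ± 0.07 (SE, n = 4 per group; limma adjusted p = 1.76e-04). Plin3 and Plin2 differed in change by 0.92 ± 0.13 (two-sided exact permutation p = 0.0286, adjusted over the 9 pairs 0.0515). Plin5, the perilipin of oxidative tissues, was called present on 0 of 8 arrays and changed by -0.60 (limma adjusted p = 0.055).

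Cidea, a CIDE protein of brown fat and relative of Cidec, named here after its values were seen, had dim signals. They were 52.3, 70.2, 47.1 and 31.4 on the sXBP1 arrays, against 142.1, 211.8, 164 and 190.8 on the GFP arrays. The groups did not overlap, Cidea was called present on 3 of 4 sXBP1 arrays and 4 of 4 GFP arrays, and it changed by -1.45 ± 0.20 (SE, n = 4 per group; limma adjusted p = 4.44e-04). Cideb, a CIDE gene known from liver, had signals of 5.6 to 11.8 on sXBP1 arrays and 8.3 to 25.9 on GFP arrays and did not pass (adjusted p = 0.169).

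On the caveolar side, Ehd4 rose. This relative of Ehd2 works in endosomal traffic and had signals of 262.8, 280.7, 369.4 and 344.2 on the sXBP1 arrays, against 130.2, 184.9, 149.8 and 153.7 on the GFP arrays. The groups did not overlap, and the change was 1.08 ± 0.12 (SE, n = 4 per group; limma adjusted p = 1.36e-04). Ehd1 and Ehd3 changed by 0.20 and -0.16 and did not pass (adjusted p = 0.21 and 0.278). Cavin3 changed by -0.17 ± 0.11 (adjusted p = 0.333), with signals of 898.7 to 1284.6 on sXBP1 arrays and 1072 to 1402.3 on GFP arrays. The muscle forms were at the limit of detection: Cav3 was called present on 1 of 4 arrays in each group (change 0.12, adjusted p = 0.743), and Cavin4 had signals of 6.8 to 20.7 on sXBP1 arrays and 9.5 to 26.2 on GFP arrays (change -0.31, adjusted p = 0.319).

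**Figure D4:**
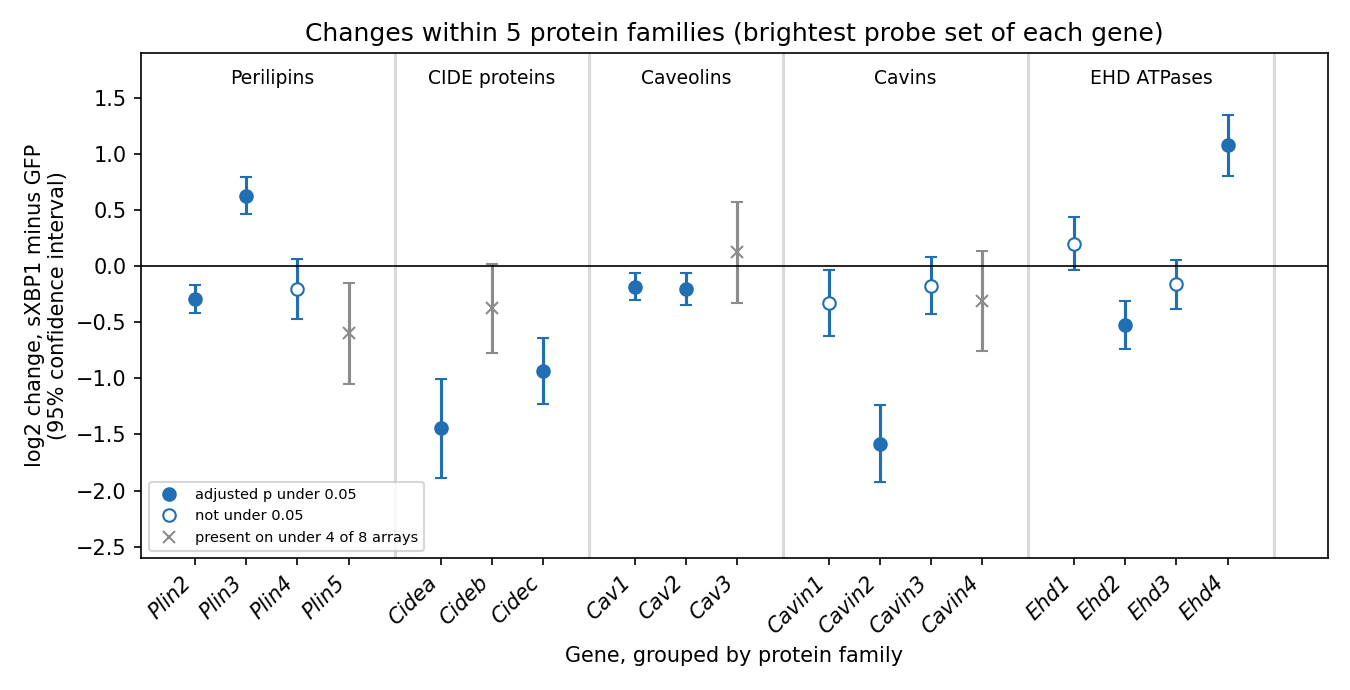
Log2 change (sXBP1 minus GFP, vertical axis) with 95% confidence interval of the measured perilipins, CIDE proteins, caveolins, cavins and EHD ATPases. Filled points passed at an adjusted p under 0.05. Grey crosses were called present on fewer than 4 of 8 arrays or, for Cideb and Cavin4, had no call. Plin3 (0.63) and Ehd4 (1.08) lie above 0 while Plin2 (-0.29) and Ehd2 (-0.53) of the same families lie below it.

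Other genes of the 2 structures were taken from lists. Of 21 measured genes of droplet growth, lipolysis and triglyceride synthesis, 4 rose, 8 fell and 9 did not pass, with a median of -0.30. Pnpla2, the adipose triglyceride lipase, fell by 0.87 ± 0.10 on 1 of 2 probe sets (limma adjusted p = 1.6e-04), with signals of 1741.8 to 2263.9 on sXBP1 arrays and 3481 to 3899.1 on GFP arrays. Ldah, a droplet-associated hydrolase, fell by 0.32 ± 0.04 on 2 of 3 probe sets (adjusted p = 3.92e-04). Gpat4, an acyltransferase that moves from the ER to growing droplets, rose by 0.59 ± 0.08 on 1 of 2 probe sets (adjusted p = 4.03e-04). Over all genes, 14.4% were lower and 12.9% higher; of all called probe sets 46.9% were higher, against 33.4% without further normalization and 60.7% after median centring.

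Of 16 measured genes that act at or near caveolae, 1 rose, 3 fell and 12 did not pass, with a median of -0.17. Over all genes, 27.3% were called, 14.4% as lower and 12.9% as higher, so this count lies near the background. Cd36, a fatty acid transporter found in caveolae, fell by 0.70 ± 0.12 (limma adjusted p = 0.0018), and its 3 probe sets all fell. Flot2, a flotillin of membrane domains other than caveolae, fell by 0.24 ± 0.06 on 1 of 2 probe sets, and Flna, an actin crosslinker that binds Cav1, fell by 0.21 ± 0.06 (adjusted p = 0.0111 and 0.0204). The Flna call was lost with values as deposited (adjusted p = 0.0665), without the variance trend (0.0644) and without GFP array 3 (0.0618) or 4 (0.0565). Under median centring 1 of these genes rose and 1 fell.

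Of 13 adipogenic regulators, 1 rose, 5 fell and 7 did not pass on their brightest probe sets, where 14.4% of all genes were lower and 12.9% higher. Among those 7, Ebf1 had 2 of 3 probe sets called lower (-0.60 and -0.58, limma adjusted p = 0.00171 and 2.02e-04). Foxo1 had 1 of 4 called lower (-0.40, limma adjusted p = 0.0272). Pparg, which drives fat cell differentiation and whose known targets include perilipin genes and Cidec, had signals of 2029.5, 2074.6, 1764.4 and 1684.8 on the sXBP1 arrays, against 2414.8, 2870.9, 2462.9 and 2463.2 on the GFP arrays. The groups did not overlap, and it changed by -0.40 ± 0.09 (SE, n = 4 per group; limma adjusted p = 0.0107). Cebpa, its partner, fell by 0.89 ± 0.21 (adjusted p = 0.0098), and by 0.44 without sXBP1 arrays 3 and 4. Srebf1, a regulator of fatty acid synthesis, fell by 0.54 ± 0.10 and Klf15 by 0.62 ± 0.14 (adjusted p = 0.00242 and 0.00814). Cebpd, an early adipogenic factor, rose by 0.72 ± 0.09 (adjusted p = 3e-04) on 1 of 2 probe sets.

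The cells carried adipocyte markers: all 8 measured were present on every GFP array. Of these, 6 fell and 0 rose. For this and the other marker lists, the shares over all genes were 14.4% lower and 12.9% higher. Their summed signal ran from 46827 to 55406.8 on sXBP1 arrays and from 56309.9 to 60602.2 on GFP arrays. The brightest, Fabp4 and Lpl, changed by -0.02 and -0.04 (limma adjusted p = 0.765 and 0.67), and both by 0.16 after median centring. The brightest Fabp4 probe set held the highest normalized value on 5 of 8 arrays, which quantile normalization makes identical between arrays, and its change is limited by that. Of the other probe sets, 1 of 3 of Fabp4 fell (-0.50, adjusted p = 0.0184) and the 1 of Lpl fell (-0.38, adjusted p = 0.0047), and the mean over all probe sets passed for both genes (Fabp4 -0.31, adjusted p = 0.029; Lpl -0.21, adjusted p = 0.0222). Of 10 fibroblast markers, 5 fell and 0 rose on their brightest probe sets. Their summed signal was 68704.2 to 73207.9 on sXBP1 arrays and 73898.9 to 80822.3 on GFP arrays. The brightest, Col3a1 and Col1a2, changed by -0.08 and 0.05. After median centring they changed by 0.13 and 0.26, and Col1a2 passed (limma adjusted p = 0.0205). Pdgfra and Col1a2 each had 1 of 2 probe sets called higher, and Col3a1, Col1a1, Pdgfrb and Fn1 each had 1 of 2 called lower. With the mean of all probe sets, Col1a2 passed as higher (0.13, limma adjusted p = 0.0326) and Col3a1 as lower (-0.17, 0.0324). Of 12 muscle markers, 1 fell and 0 rose. The marker that fell was Mb, at -2.03 on its brightest probe set, while its other probe set did not pass (0.63). The summed signal of the 12 was 653.8 to 855.5 on sXBP1 arrays and 953 to 1332.4 on GFP arrays. Des and Acta1 changed by -0.24 and -0.08 (limma adjusted p = 0.0953 and 0.726).

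Caveolae are also dense in endothelium. On the brightest probe sets, 0 of 10 endothelial markers passed in limma (2 at an unadjusted p under 0.05). Their sum was 442.7 to 548.3 on sXBP1 arrays and 353.2 to 447.6 on GFP arrays. A present call was lacking on every array for 6 of them, Pecam1 among them. This count includes any probe set that the authors' comparison leaves out and that therefore has no call. Flt1 and Cldn5 changed by 0.32 and -0.11 (limma adjusted p = 0.116 and 0.699). However, 2 of 3 Flt1 probe sets passed as higher, and their mean changed by 0.39 (limma adjusted p = 0.00384). Of 10 macrophage markers, 3 rose and 0 fell, with a sum of 1227.2 to 2291.4 on sXBP1 arrays and 620.1 to 711.5 on GFP arrays. Cd68, Lyz2 and Csf1r rose by 1.79, 1.92 and 0.49, the last on 2 of 3 probe sets. Of the 10 markers, 4 were present on all GFP arrays (these 3 and Adgre1, which changed by -0.12, limma adjusted p = 0.667). Counted as for the endothelial markers, 4 lacked a present call on every array (Ptprc, Itgam, Cd163 and Fcgr1). The part of any of these cell types in the changes of the droplet and caveola genes was not tested.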

How the data were processed

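Signal intensity values per probe set were made by the authors with MAS5, per the submitters' processing notes; its version and target value are unstated there. The deposited tables held 22690 probe sets. A deposited comparison table, with present or absent calls, a signed fold and a score, listed 18394 of them with identical signals. After 64 controls were left out, 22626 probe sets were tested as log2(signal + 16), quantile normalized, with limma 3.58.1 in R 4.3.3 (trend, two-sided, Benjamini-Hochberg over all of them, threshold 0.05). Changes are sXBP1 minus GFP; the pseudocount understates those of dim genes. A gene was represented by its brightest probe set among those with a single symbol in the platform annotation (20380; 691 had several and 1555 none), and all 9 measured members matched RefSeq by Entrez identifier. Groups came from the sample titles. The number of arrays limits the precision.

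Members and gene lists were chosen with earlier results of these data known. Genes named were all members, Xbp1, the 4 smallest p of each related list, relatives fixed by name and the 2 brightest of each marker list. Cidea, Cideb, Ehd1, Ehd3, Ebf1, Foxo1, Mb, Pecam1, Csf1r, Adgre1, Ptprc, Itgam, Cd163, Fcgr1, Pdgfra, Pdgfrb, Col1a1 and Fn1 were named after their values were seen. The fit was tested on simulated data. Alternatives covered scaling, pseudocount, trend, a filter on detection, all probe sets of a gene, a replicate block and left-out arrays. The planned pairs against Plin1 were not run. Figures were drawn with matplotlib 3.10.9.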

Additional observations from a re-analysis of the deposited data

Results flagged for a closer look

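Within groups of 4 arrays, 2 of 32 sets of member values held an array far from the other 3, by Dixon's ratio of its gap to the range (95% critical value); chance flags about 1 in 20 such sets. Plin4 was high on GFP array 1, with a signal of 5106.4 and a ratio of 0.875. Cav2 was low on GFP array 1, with a signal of 10291.4 and a ratio of 0.960.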

How the results depend on the processing

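Cidec and Cavin2 passed and Plin4 did not pass under all 17 alternatives; Plin2 and Ehd2 kept their call in 16, Cavin1 in 14, Bscl2 in 13, Cav1 in 8 and Cav2 in 6. With values as deposited, 2 caveola genes were called, Bscl2 passed (-0.26) and Cav1 (-0.14) and Cav2 (-0.19) did not; Fabp4 (0.013) and Lpl (0.012) turned positive and the dim Cav2 probe set negative (-0.057). Under median centring, 4 member probe sets, 1 droplet gene and 2 caveola genes were called; Plin2 (-0.17) and Cav2 (-0.046) did not pass, and Cav1 (0.0017), Fabp4 (0.16), Lpl (0.16), Col3a1 (0.13) and a dim Ehd2 probe set (0.077) turned positive. Without the variance trend, 2 caveola genes were called, with Cav1 (-0.18) and Cav2 (-0.20) lost. With detected probe sets only, Bscl2 passed (-0.22, adjusted p = 0.0374).

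With the mean of all probe sets of a gene, Cav2 (-0.060) and Ehd2 (-0.25) did not pass and Cavin1 did (-0.36). Same-numbered arrays deviated together by correlations of 0.128, 0.028, -0.081 and 0.107 for numbers 1 to 4. The highest with another number were -0.024, 0.029, 0.082 and 0.089, so these values do not settle whether the numbers pair the arrays. The replicate block called 5083 probe sets against 5543, and under the block Bscl2 (-0.22) and Cavin1 (-0.33) passed. Without sXBP1 arrays 3 and 4, a choice made after the data were seen, 5 member probe sets and 2 caveola genes were called; Cav1 (-0.10) and Cav2 (-0.18) did not pass, and Cavin3 (0.044), Lpl (0.015), Acta1 (0.042), the dimmer Bscl2 probe set (0.000548) and a dim Ehd2 probe set (0.093) turned positive.

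Leaving out each array in turn called 4602 to 5394 probe sets in all, 5 to 10 of the members, 2 to 3 droplet genes and 2 to 5 caveola genes. The 2 caveola genes and 5 member probe sets were reached without GFP array 2 or 3 or sXBP1 array 3 or 4. Changes ranged over -0.33 to -0.24 for Plin2, -0.29 to -0.09 for Plin4, -1.03 to -0.84 for Cidec, -0.28 to -0.14 for Bscl2, -0.21 to -0.14 for Cav1, -0.25 to -0.17 for Cav2, -0.42 to -0.22 for Cavin1, -1.70 to -1.45 for Cavin2 and -0.58 to -0.46 for Ehd2. The difference of Cav2 and Cav1 ranged over -0.084 to 0.031 and was positive without GFP array 4 (0.022) or sXBP1 array 1 (0.031). Cav3 ranged over -0.054 to 0.21 and was negative without GFP array 2. A dim Ehd2 probe set ranged over -0.27 to 0.13 and was 0.055, 0.017 and 0.13 without GFP array 2, GFP array 3 and sXBP1 array 4. The causes were not tested. Probe sets near background, such as those of Cav3 and the dim ones of Ehd2, limit what signal can show.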
